A study of Mus musculus with 12 samples.

Results

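Spleens of ICR mice given busulfan together with L.J. at 10 mg/kg were compared with spleens of ICR mice given L.J. at 10 mg/kg alone, with 3 RNA-seq libraries in each group. All mice were 8 weeks old, and L.J. was given in both groups, so that busulfan was the labelled difference between them. The comparison covers every gene whose mean reached 1 FPKM (fragment number relative to transcript length and library total) in at least 1 of these 2 groups, which held for 12661 of the 21004 genes in the deposited table. A further 6 libraries, 3 from control mice and 3 from mice given busulfan without L.J., served to ask whether the busulfan difference was another one in the absence of L.J. What L.J. stands for is not stated in the labels, and neither are the dose of busulfan and the time of collection. The series description also mentions FMT, which no sample label names, and the groups are taken as labelled.

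Busulfan is an alkylating drug that crosslinks DNA and depletes dividing cells of the bone marrow. The mouse spleen filters blood, stores platelets and lymphocytes, and is itself a site of blood formation, in which megakaryocytes, erythroid precursors and granulocyte precursors lie in the red pulp between sinusoids. Plasma cells in the same tissue secrete antibody and depend on the folding machinery of the endoplasmic reticulum. The series title poses the question whether L.J. offsets harm done to the spleen by busulfan, and this comparison shows what busulfan was accompanied by when L.J. was present.

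The tissue label was borne out by spleen genes in all 12 libraries. Spic, the transcription factor of red pulp macrophages, ranged from 33.7 to 65.2 FPKM, Tlx1, a transcription factor of spleen stroma, from 6.49 to 12.2 FPKM, and the B cell receptor gene Cd79a from 649 to 1884 FPKM. The depth is unknown, since the deposited values carry no read numbers, and their sums lie between 511876 and 580364 FPKM per library. Pearson correlations of log2(FPKM + 1) over the 12661 genes were 0.974 to 0.976 within L.J. alone, 0.982 to 0.984 within busulfan with L.J. and 0.962 to 0.983 between the groups. The groups were barely farther from each other than libraries of 1 group. No label states that the libraries came from separate mice, so p-values measure the spread between these libraries. Library 3 of L.J. alone stood apart from the other libraries of its group in pancreatic acinar, plasma cell and interferon genes. Scores given here are averages of log2(FPKM + 1) over the genes of a list, taken in 1 library. The acinar score of that library was 6.03, against 3.66 and 1.64 in libraries 1 and 2, and 0.67, 0.51 and 2.27 with busulfan and L.J. Its plasma cell score was 5.58, against 4.85 and 4.81, and its type I interferon score 5.46, against 4.54 and 4.87. For the lists in which it stood apart, and for the unfolded protein response, values are also given without it.

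No gene passed the test. Of 13138 genes tested with limma on log2(FPKM + 1), 0 (0%) had a Benjamini-Hochberg adjusted p below 0.05, and the smallest was 0.635, for Nrgn. At an unadjusted p below 0.05 there were 737 genes (5.61%). Among the 12661 genes of the comparison, 335 of these were higher (2.65%) and 401 lower (3.17%) with busulfan and L.J. The 3 values of one group all lay above the 3 of the other in 2017 genes (15.9%), of which 1017 were higher (8.03%) and 1000 lower (7.9%). At any size of difference, 6583 genes were higher (52%) and 6078 lower (48%). The middle of the distribution was at a log2 difference of 0.01, with 5% of genes below -0.36 and 5% above 0.28, and 78 genes differed by at least 1. In mice without L.J., busulfan against control gave 4 called genes (0.0304%) and 1602 at an unadjusted p below 0.05 (12.2%). The difference between the busulfan effect with and without L.J. was itself tested in the same model. It gave 0 called genes (0%) with limma, 1506 at an unadjusted p below 0.05 (11.5%), and smallest adjusted p-values of 0.0928 for Manf and Slpi and 0.0963 for Sec11c. All differences below are described as values that did not pass the test over all genes, and p-values are unadjusted unless called adjusted. Log2 differences are on the log2(FPKM + 1) scale, busulfan with L.J. minus L.J. alone.

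**Figure D1:**
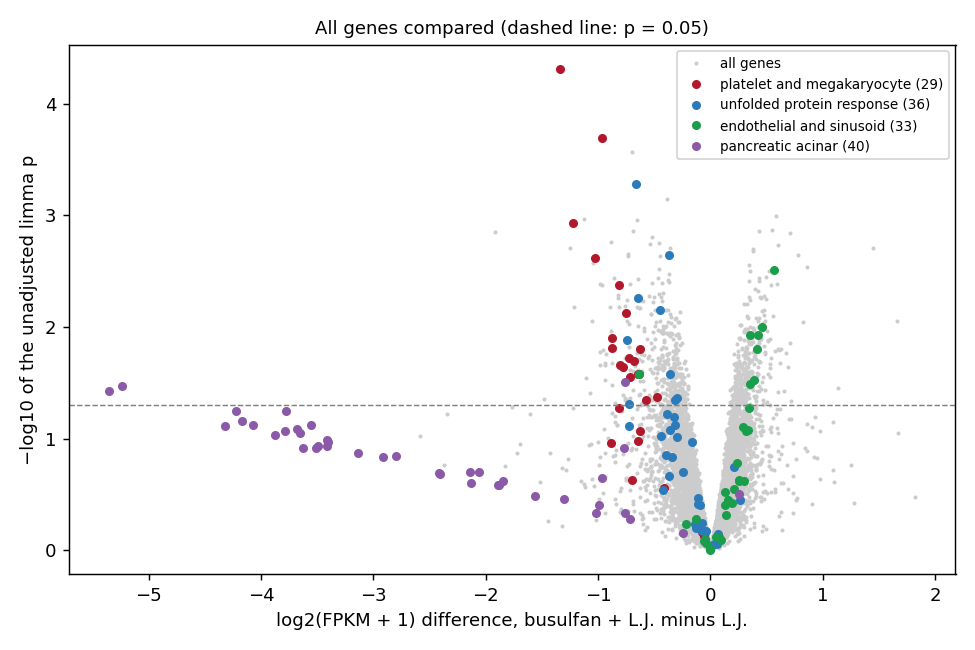
Each point is 1 of the 12661 genes, with its log2(FPKM + 1) difference (busulfan with L.J. minus L.J. alone) on the x axis and the negative log10 of its unadjusted limma p on the y axis. Genes of the platelet list lie at the upper left, led by Nrgn at -1.33, acinar genes reach -5.35 with larger p, and several endothelial genes lie to the right of 0.

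Platelet and megakaryocyte genes, which include the 2 genes with the smallest p, were mostly lower with busulfan and L.J. Nrgn encodes neurogranin, a calmodulin-binding protein known from neurons whose transcript is also found in platelets (gene 64011, chromosome 9, 37544493 to 37552745 on the mm10 assembly). In L.J. libraries 1 to 3 its level was 216, 172 and 118 FPKM, and it was 62.0, 57.3 and 75.2 FPKM in the 3 libraries given both agents. The lowest L.J. library thus lay above the highest library with busulfan. The means were 169 ± 48.8 and 64.8 ± 9.24 FPKM (SD, n = 3), and the log2 difference was -1.33 (SE 0.21, 95% interval -1.79 to -0.87, limma adjusted p = 0.635). Of 29 platelet and megakaryocyte genes, 27 were lower and 2 higher, with a median log2 difference of -0.69, beside a median of 0.01 over all genes. An unadjusted p below 0.05 was reached by 18 of them, all lower, and the groups did not overlap in 18, all lower. These shares stand beside 3.17% and 7.9% over all genes. The list was written with earlier results of these data known, including that of Nrgn. In bulk tissue, fewer megakaryocytes or platelets and less of these RNAs in each cell cannot be told apart.

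A chemokine gene and platelet receptors were next by p within the list. Ppbp, the precursor of a platelet chemokine stored in alpha granules (gene 57349, chromosome 5, 90768518 to 90770063), stood at 832, 951 and 448 FPKM with L.J. alone and at 384, 268 and 269 FPKM with busulfan and L.J., a log2 difference of -1.22 (SE 0.28). Gp1ba, the subunit of the von Willebrand factor receptor that binds the ligand (gene 14723, chromosome 11, 70639102 to 70643986), stood at 71.1, 46.3 and 31.9 FPKM against 27.7, 18.7 and 22.5 FPKM, a log2 difference of -1.03 (SE 0.26). For both genes the groups did not overlap. Gp6, the platelet collagen receptor, stood at 12.3, 19.3 and 9.14 FPKM against 7.88, 6.86 and 6.24 FPKM, and Treml1, a receptor held in alpha granules until platelets are activated, at 21.8, 35.3 and 22.9 FPKM against 13.8, 10.8 and 14.2 FPKM. Their log2 differences were -0.81 (SE 0.23) and -0.96 (SE 0.18), again with no overlap. F2rl2, a thrombin receptor, differed by -0.75.

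Integrins and granule proteins mostly lay in the same direction. Itgb3, the beta chain of the fibrinogen receptor, differed by -0.64, Thbs1, thrombospondin of the alpha granule, by -0.78, Selp, P-selectin, by -0.67, and Alox12, the platelet lipoxygenase, by -0.88, each with an unadjusted p below 0.05. Itga2b, the alpha chain of the same integrin, stood at 25.7, 42.3 and 23.6 FPKM against 20.5, 14.3 and 14.9 FPKM, a difference of -0.81 (limma adjusted p = 0.893). Pf4, a chemokine gene widely used as a megakaryocyte marker, overlapped between the groups, with 109.7, 218 and 112 FPKM against 117, 74.5 and 71.8 FPKM and an interval from -1.91 to 0.52. The exceptions to the direction were Gfi1b, a transcription factor shared by megakaryocytes and erythroid cells, at 0.06, and Slamf1, a receptor of stem cells and lymphocytes, at 0.06, and both turned negative when some single libraries were left out. Vwf, which endothelial cells make as well as megakaryocytes, differed by -0.64, while most other endothelial genes were higher.

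**Figure D2:**
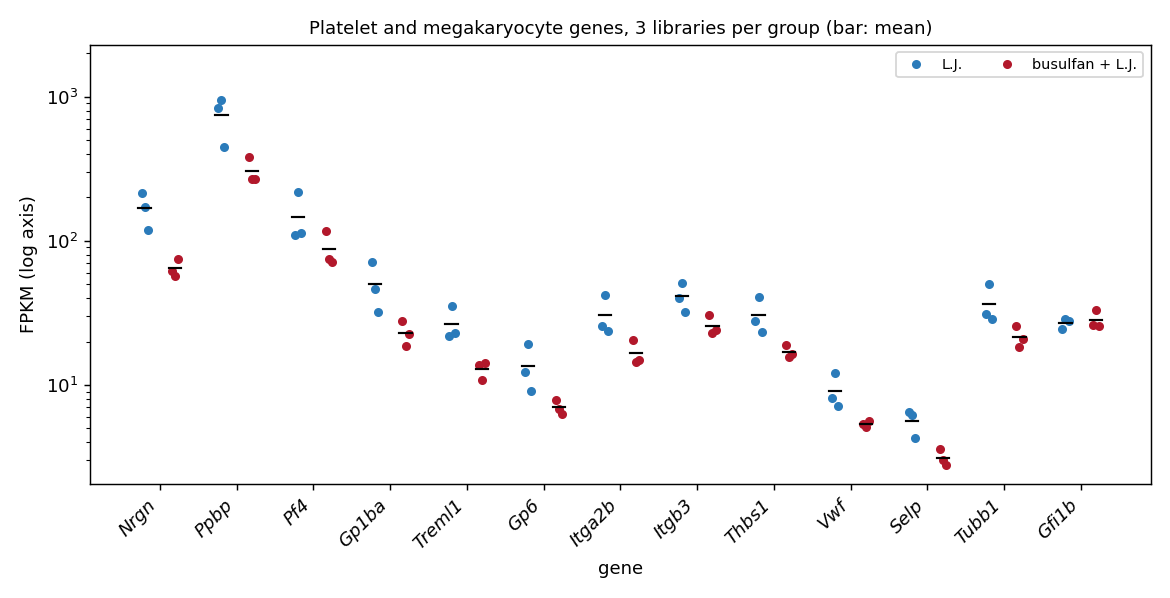
FPKM (log axis) of 13 platelet and megakaryocyte genes in the 3 libraries of L.J. alone and the 3 of busulfan with L.J., with a bar at each mean. The libraries with busulfan lie below all L.J. libraries for Nrgn, Ppbp, Gp1ba, Treml1 and Gp6, overlap for Pf4 and lie level for Gfi1b.

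The size of the platelet difference depended on single libraries. L.J. library 2 had the highest platelet score, 4.90, against 4.54 and 4.22 in the other L.J. libraries and 4.10, 3.78 and 3.85 with busulfan and L.J. Without that library 25 of 29 genes were lower, 7 of them at an unadjusted p below 0.05, and the median was -0.47. Leaving out library 2 or library 3 of the group with both agents, the number at an unadjusted p below 0.05 was 10 and 8. The control scores of 4.49, 4.01 and 4.07 lay within those of busulfan without L.J., at 4.51, 4.11 and 3.63, and the median platelet difference in that pair was -0.08. There Nrgn differed by -0.72 and Treml1 by -0.42. The difference between the 2 busulfan effects had limma adjusted p-values of 0.461 for Nrgn, 0.445 for Treml1 and 0.354 for Ppbp. It was below an unadjusted 0.05 in 2 of the 29 genes, beside 11.5% of all genes tested. A platelet difference particular to mice given L.J. is not shown. With the acinar score as a covariate 28 of the 29 genes were lower, 7 of them at an unadjusted p below 0.05, with a median of -0.51.

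The promoters of the leading platelet genes are shown because GATA and ETS factors are the known regulators of megakaryocyte genes. The windows run from 250 bases before to 50 bases after a RefSeq start site, 5′ to 3′ on the gene's strand, on GRCm38.p6. For Gp1ba this site lies downstream of the gene start given above. Capitals mark GATAA and GGAAG, the cores of GATA and ETS sites, on either strand. Nrgn is read from the minus strand of chr9:37552696-37552995 and Gp1ba from the plus strand of chr11:70638872-70639171.
Nrgn: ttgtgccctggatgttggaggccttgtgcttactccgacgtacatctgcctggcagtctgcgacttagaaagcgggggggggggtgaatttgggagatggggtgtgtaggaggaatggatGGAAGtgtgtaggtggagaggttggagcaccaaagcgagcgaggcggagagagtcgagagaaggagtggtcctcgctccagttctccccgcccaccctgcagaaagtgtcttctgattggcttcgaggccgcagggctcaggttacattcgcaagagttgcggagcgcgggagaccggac
Gp1ba: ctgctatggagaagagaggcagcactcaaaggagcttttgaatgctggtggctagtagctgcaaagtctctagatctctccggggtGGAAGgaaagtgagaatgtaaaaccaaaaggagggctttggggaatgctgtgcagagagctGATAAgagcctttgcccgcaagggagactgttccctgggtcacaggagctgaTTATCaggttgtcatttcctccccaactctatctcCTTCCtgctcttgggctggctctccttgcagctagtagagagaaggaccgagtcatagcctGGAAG
The Nrgn window held 1 GGAAG and no GATAA. The Gp1ba window held 2 GATAA and 3 GGAAG. Promoters were matched for 23 of the 29 list genes. GATAA was found in 13 of the 23 (56.5%), against 25.4% of 32851 RefSeq promoters of the same length, and GGAAG in 21 (91.3%), against 71.4%. A list gene was counted if any of its promoters held the motif. The 32851 are single promoters, so the shares differ in unit. These are matches of letters, not bound sites.

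Genes of the endoplasmic reticulum were lower with busulfan and L.J., where most of them had been higher with busulfan in the absence of L.J. Manf, a small protein secreted upon stress of the reticulum (gene 74840, chromosome 9, 106888753 to 106891938), stood at 86.0, 74.4 and 98.0 FPKM with L.J. alone and at 50.8, 50.3 and 60.9 FPKM with busulfan and L.J. The groups did not overlap, with means of 86.1 ± 11.8 and 54.0 ± 5.98 FPKM (SD, n = 3) and a log2 difference of -0.66 (SE 0.14, 95% interval -0.96 to -0.36, limma adjusted p = 0.867). In controls Manf averaged 64.7 FPKM and with busulfan alone 110.3 FPKM, a log2 difference of 0.76. The difference between the 2 busulfan effects, -1.42, had a limma adjusted p = 0.0928. Sec11c, a catalytic subunit of signal peptidase, stood at 175, 152 and 181 FPKM against 113, 103 and 96.3 FPKM, a difference of -0.69 with L.J. and of 0.61 without.

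Several chaperones of the reticulum were also lower. Hsp90b1, the chaperone also called GRP94, stood at 495, 478 and 774 FPKM against 378, 349 and 366 FPKM, a difference of -0.64 (SE 0.19). Creld2, a target of the unfolded protein response, stood at 46.9, 45.9 and 98.0 FPKM against 36.4, 31.1 and 38.8 FPKM, a difference of -0.74 (SE 0.25). Hspa5, the chaperone BiP, stood at 318, 321 and 430.3 FPKM against 276, 264 and 287 FPKM, a difference of -0.36 (SE 0.14). In each case the groups did not overlap, and library 3 was the highest of the L.J. libraries. Atf4, the transcription factor of the integrated stress response, did not single out that library, with 196, 179 and 186 FPKM against 138, 149.96 and 148 FPKM and a difference of -0.36 (SE 0.09). Dnajb9, a cochaperone of BiP, differed by -0.45 and Calr, the calcium-binding chaperone calreticulin, by -0.30. Xbp1, the transcription factor that drives this programme in secretory cells, overlapped, with 61.6, 66.4 and 118 FPKM against 64.5, 54.5 and 63.4 FPKM.

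Of 36 genes of the unfolded protein response, 31 were lower and 5 higher, with a median of -0.31. An unadjusted p below 0.05 was reached by 9, all lower, and 15 did not overlap, all lower, beside 3.17% and 7.9% of all genes. In mice without L.J. 33 of the 36 were higher with busulfan, with a median of 0.45, and 30 of the 36 had opposite signs with and without L.J. The difference between the 2 effects was below an unadjusted 0.05 in 23 of the 36 and called in 0 with limma, beside 11.5% and 0% of all genes tested. Without L.J. library 3, 28 of 36 genes were lower, 5 of them at an unadjusted p below 0.05, and the median was -0.17. Leaving out library 2 of the group with both agents, 5 were lower and 1 higher at that p. Acinar genes moved in the same way as this list in both pairs of groups. With the acinar score as a covariate, 24 of the 36 genes were lower, 7 lower and 1 higher at an unadjusted p below 0.05, and the median was -0.15.

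The matching promoters are shown for the element that ATF6 is known to bind under stress of the reticulum, which is CCAAT and CCACG with 9 bases of any kind between them, and whose match on either strand is in capitals with those 9 bases. The windows are defined as above. Creld2 is read from the plus strand of chr15:88819396-88819695, Hspa5 from the plus strand of chr2:34771840-34772139 and Hsp90b1 from the minus strand of chr10:86705395-86705694.
Creld2: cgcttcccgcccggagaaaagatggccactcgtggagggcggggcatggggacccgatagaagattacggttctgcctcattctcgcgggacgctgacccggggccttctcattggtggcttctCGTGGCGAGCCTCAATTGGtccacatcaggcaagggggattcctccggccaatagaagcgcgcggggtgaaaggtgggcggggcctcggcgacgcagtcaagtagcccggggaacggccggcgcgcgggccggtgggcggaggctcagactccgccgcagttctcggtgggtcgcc
Hspa5: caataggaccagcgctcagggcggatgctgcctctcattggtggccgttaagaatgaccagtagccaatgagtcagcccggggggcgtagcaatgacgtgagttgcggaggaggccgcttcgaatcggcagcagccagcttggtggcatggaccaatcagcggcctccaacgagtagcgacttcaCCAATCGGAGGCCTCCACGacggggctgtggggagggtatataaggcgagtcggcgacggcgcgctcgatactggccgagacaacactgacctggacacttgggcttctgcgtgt
Hsp90b1: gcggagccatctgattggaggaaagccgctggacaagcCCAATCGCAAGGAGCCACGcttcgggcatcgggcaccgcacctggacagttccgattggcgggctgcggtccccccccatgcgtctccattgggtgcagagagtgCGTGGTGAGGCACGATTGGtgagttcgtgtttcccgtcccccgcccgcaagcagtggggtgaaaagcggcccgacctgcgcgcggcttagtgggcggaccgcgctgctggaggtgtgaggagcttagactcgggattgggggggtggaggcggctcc
Creld2 and Hspa5 held 1 match each and Hsp90b1 held 2. Of the 36 list genes 30 had a promoter in the table, and 9 of these held the element (30%), namely Calr, Canx, Creld2, Derl3, Dnajc3, Hsp90b1, Hspa5, Pdia6 and Syvn1. Among all 32851 single promoters 39 held it (0.119%), whereas a list gene was counted if any of its promoters held it. Of these 9 genes Canx, with a difference of -0.09, and Dnajc3, with -0.11, had differences close to 0, while Creld2 had the lowest value of the list, -0.74.

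**Figure D3:**
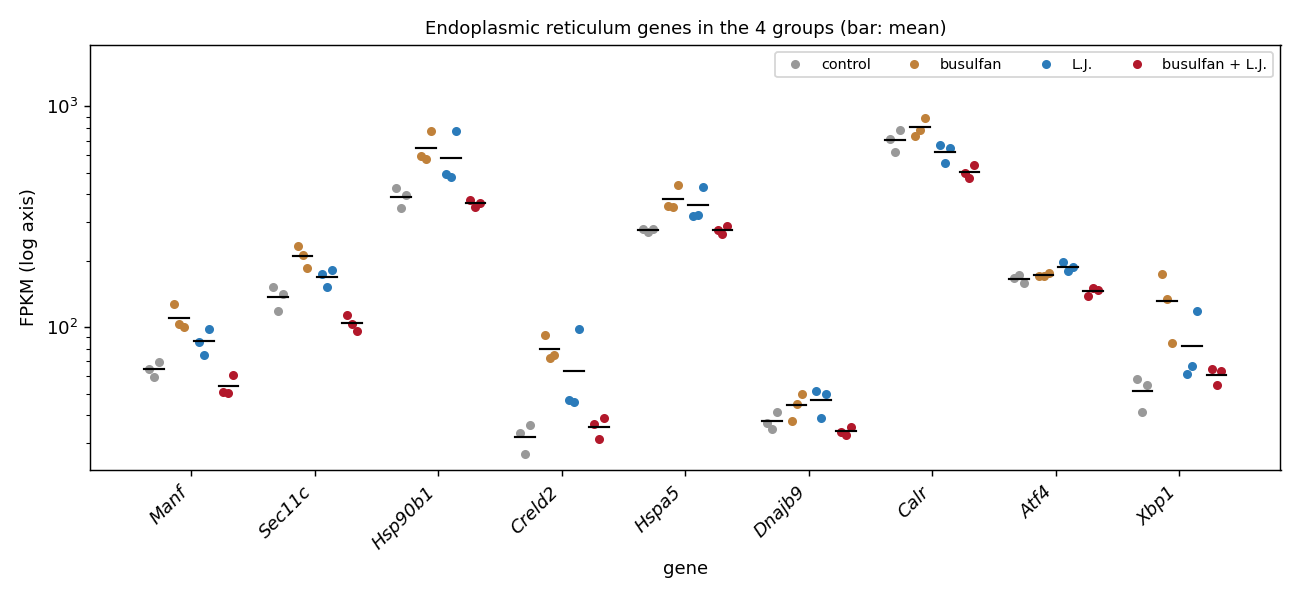
FPKM (log axis) of 9 genes of the endoplasmic reticulum in the 3 libraries of each of the 4 groups, with a bar at each mean. Busulfan lies above control for Manf, Sec11c, Hsp90b1 and Creld2, and busulfan with L.J. lies below L.J. alone for the same genes. Library 3 of L.J. alone is the highest blue point for Hsp90b1, Creld2, Hspa5 and Xbp1.

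Plasma cell genes were lower in the same samples, but largely through 1 library. In this list 14 of 17 genes were lower (median -0.37), and 5 had an unadjusted p below 0.05, all lower, beside 3.17% of all genes. Eaf2, an elongation factor partner of germinal centre and plasma cells, stood at 31.8, 22.2 and 48.6 FPKM against 15.9, 17.5 and 18.4 FPKM, a difference of -0.88 (SE 0.22) with no overlap. Jchain, which joins antibody multimers, stood at 399, 378 and 1125 FPKM against 399, 317 and 321 FPKM, and Mzb1, a chaperone of antibody assembly, at 129, 149 and 265 FPKM against 113, 97.7 and 100.5 FPKM. Sdc1, the surface marker syndecan-1, stood at 6.22, 5.48 and 13.02 FPKM against 5.03, 4.30 and 4.65 FPKM. In each of these genes library 3 of L.J. alone was the highest. Without it 14 of 17 were still lower, 2 of them at an unadjusted p below 0.05 beside 1 higher, and the median was -0.13. Leaving out library 1, 2 or 3 of the group with both agents, the number lower at that p was 3, 2 and 2. With the acinar score as a covariate 12 of 17 were lower, 1 of them at that p, and the median was -0.18. Derl3 and Creld2 belong to both this list and the preceding one.

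Transcripts of the pancreatic acinar list, most of which were below 1 FPKM in control spleens, had the largest median difference of the 48 lists. In this list 39 of 40 genes were lower (median -2.85), and 3 had an unadjusted p below 0.05, all lower, beside 3.17% of all genes. Without L.J. library 3 the same number were lower, but the median was -1.47 and 0 reached that p with limma, whereas without L.J. library 2 the median was -4.14 and 19 reached it. Without library 1 or library 2 of the group with both agents 0 reached it, and without library 3 of that group 6 did. With all libraries kept, the groups stood apart in 1 of the 40 genes, which was lower, beside 7.9% of all genes. Any list gene that met the minimum of 1 FPKM only through L.J. alone entered as lower by its mean. Amy2a5, a pancreatic amylase, stood at 167, 19.2 and 1177 FPKM with L.J. alone and at 0.73, 0.03 and 32.2 FPKM with busulfan and L.J. Ctrb1, chymotrypsinogen, stood at 260.4, 17.7 and 1346 FPKM against 1.13, 0.45 and 38.6 FPKM, so that both genes overlapped through library 2 of the former and library 3 of the latter group. Bhlha15, another list gene at an unadjusted limma p below 0.05, stood at 4.32, 3.15 and 8.3 FPKM against 2.58, 2.3 and 2.6 FPKM. It was also found in controls, at 2.41, 1.38 and 2.67 FPKM. Of the 40 genes 5, 11 and 1 were below 1 FPKM in the L.J. libraries and 30, 31 and 9 in those with busulfan and L.J. In the controls 33, 32 and 34 were below 1 FPKM. Together the 40 genes made up 0.216%, 0.0256% and 1.34% of the FPKM sum of the L.J. libraries. Read sharing between near-identical amylase genes cannot be traced in FPKM.

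Vascular genes were higher with busulfan and L.J. Tek, the angiopoietin receptor of endothelium (gene 21687, chromosome 4, 94739086 to 94874976), stood at 3.51, 2.87 and 2.89 FPKM with L.J. alone and at 4.91, 5.26 and 4.99 FPKM with busulfan and L.J., a difference of 0.57 (SE 0.15, 95% interval 0.24 to 0.90, limma adjusted p = 0.867). Stab2, a scavenger receptor of sinusoidal endothelium (gene 192188, chromosome 10, 86841194 to 87008038), stood at 12, 14.8 and 14.9 FPKM against 20.4, 16.8 and 19.9 FPKM, a difference of 0.43 (SE 0.14). Cd36, a fatty acid and thrombospondin receptor of sinusoids, macrophages and platelets, stood at 63.5, 75.4 and 71.5 FPKM against 89.3, 105 and 96.9 FPKM, a difference of 0.46 (SE 0.15). The groups did not overlap for these 3 genes. The VEGF receptors Kdr and Flt1 differed by 0.41 and 0.39, the scavenger receptor Stab1 by 0.35 and Mmrn2, a protein of the vessel matrix, by 0.35.

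In the endothelial list 25 of 33 genes were higher (median 0.19), and 7 were higher at an unadjusted p below 0.05, beside 2.65% of all genes. The groups stood apart in 10 that were higher and in 1, Vwf, that was lower, beside 8.03% and 7.9%. The pan-endothelial genes Pecam1 and Cdh5 differed by 0.13 and 0.24, with overlapping groups. Without L.J., busulfan went the other way in this list, with 30 of 33 genes lower and a median of -0.34. The difference between the 2 effects was below an unadjusted 0.05 in 14 of the 33 genes and called in 0 with limma, beside 11.5% and 0% of all genes tested. The count of higher genes at an unadjusted p below 0.05 was 4 without library 3 of the group with both agents or without library 1 of L.J. alone, and 12 with library weights.

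Some matrix and guidance genes of the same kind were among the smallest p-values. Hs6st2, a heparan sulfate sulfotransferase, stood at 10.3, 12.7 and 12.5 FPKM against 16.3, 17.8 and 19.2 FPKM, a difference of 0.55. Clic5, an intracellular chloride channel protein abundant in endothelium, stood at 10.6, 13.1 and 11.4 FPKM against 17.1, 19.6 and 18.2 FPKM, a difference of 0.61. In the absence of L.J. they differed by -0.53 and -0.67, and the difference between the effects had an adjusted p of 0.129 for both with limma. Itga1, a collagen-binding integrin chain, differed by 0.43 and Sema3d, a secreted guidance protein, by 0.71. Among stromal genes Col14a1, a collagen that associates with fibrils, stood at 19.4, 20.5 and 21.1 FPKM against 27.5, 29.5 and 26.4 FPKM, a difference of 0.43, and Igfbp7, a secreted binding protein of vessels and stroma, at 315, 426 and 370.0 FPKM against 538, 468 and 529.97 FPKM, a difference of 0.47. The stromal list as a whole was split, with 27 of 48 genes higher and a median of 0.02. An unadjusted p below 0.05 was reached by 5, all higher, beside 2.65% of all genes. They were Col14a1, Igfbp7, the basement membrane collagen gene Col4a1, the stromal transcription factor Tcf21 and fibrillin Fbn1. The groups stood apart in 8 that were higher and in 1 that was lower, beside 8.03% and 7.9%. Col1a1, the main fibrillar collagen gene, overlapped, with 37.7, 24.03 and 15.9 FPKM against 15.1, 18.8 and 22.9 FPKM. Smooth muscle genes also divided, with differences of 0.83 for Cnn1, calponin, 0.40 for Synpo2, an actin-binding protein, and -0.63 for Tpm2, a tropomyosin.

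**Figure D4:**
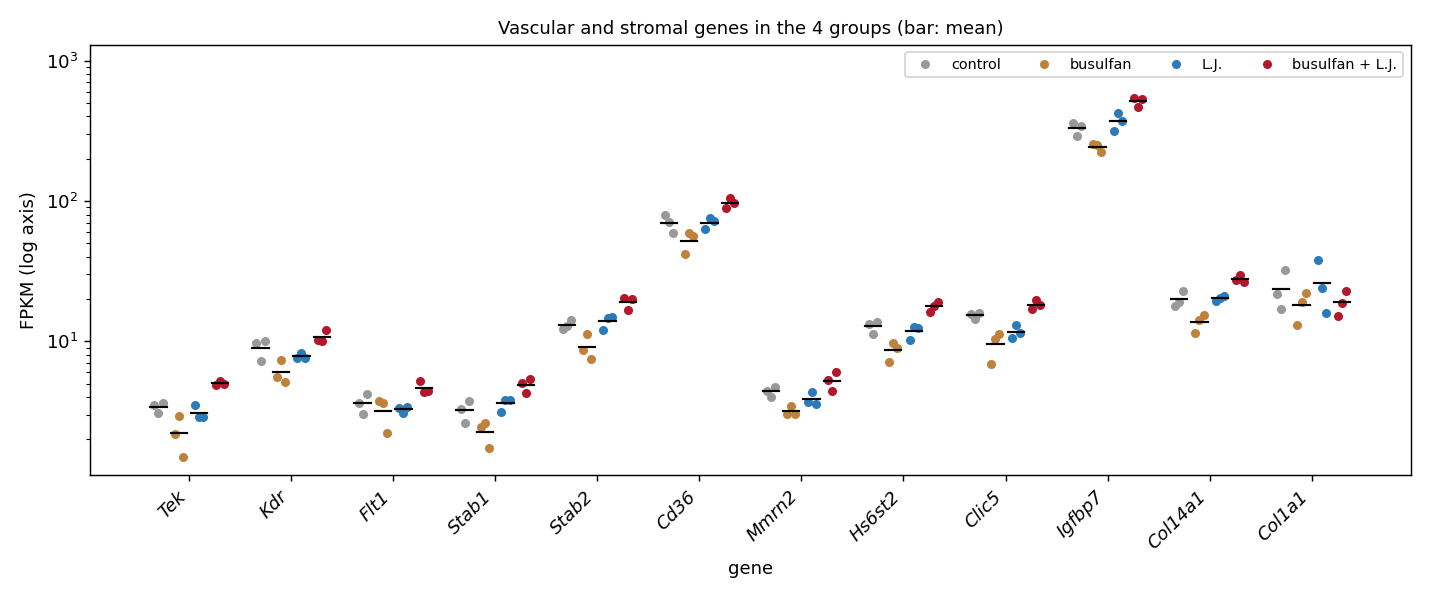
FPKM (log axis) of 12 vascular and stromal genes in the 3 libraries of each of the 4 groups, with a bar at each mean. Busulfan with L.J. lies above L.J. alone for all but Col1a1, while busulfan lies below control for most of the same genes.

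Granulocyte genes did not show with L.J. the difference they had without it. S100a8, an abundant neutrophil protein, stood at 188, 379 and 173 FPKM with L.J. alone and at 282, 180.2 and 98.8 FPKM with busulfan and L.J. The groups overlapped, and the log2 difference of -0.43 had an interval from -2.74 to 1.88. Mpo, the peroxidase of primary granules, stood at 29.3, 30.8 and 22.8 FPKM against 19.3, 18.8 and 9.76 FPKM, with no overlap. Its difference of -0.80 had an interval from -3.09 to 1.48. These intervals draw on the spread within all 4 groups, and with busulfan alone Mpo stood at 768, 241 and 19.7 FPKM. Slpi, an inhibitor of neutrophil proteases, stood at 112, 81.1 and 104 FPKM against 67.8, 43.1 and 50.9 FPKM, a difference of -0.87 (limma adjusted p = 0.897) with no overlap. Prg2, the major basic protein of eosinophils, stood at 2.38, 6.72 and 4.31 FPKM against 3.68, 2.66 and 2.54 FPKM. The median over 30 mature neutrophil genes was -0.43, with 24 of them lower and 0 at an unadjusted p below 0.05 with limma, and over 14 genes of granulocyte precursors it was -0.37, with 11 lower and 0 below that p. The groups stood apart in 2 neutrophil and 3 precursor genes, all lower, beside 7.9% of all genes. With a fit of the 2 L.J. groups alone 4 neutrophil genes were lower and 1 higher at that p, and 3 precursor genes were lower. When library 3 of busulfan alone was left out of the fit, 9 neutrophil genes and 1 precursor gene were lower at that p. In that fit 931 of 13138 genes reached it in either direction.

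In mice without L.J. the same medians, busulfan minus control, were 2.30 and 2.54. The difference between the 2 effects was below an unadjusted 0.05 in 22 of 30 neutrophil and 9 of 14 precursor genes, beside 11.5% of all genes tested, and was called in 0 of either list with limma. The spread in that pair lay between libraries, with neutrophil scores of 7.07, 6.38 and 3.86 with busulfan alone against 3.34 to 3.59 in controls. Without library 3 of busulfan alone, 508 genes were called for the difference between the effects, among them 41 of 49 granulocyte genes tested. The acinar score of the busulfan libraries, at 8.81, 5.48 and 2.13, followed the same order as their neutrophil score. In L.J. alone the order was reversed, with acinar scores of 3.66, 1.64 and 6.03 beside neutrophil scores of 3.69, 4.07 and 3.62. With busulfan and L.J. the orders also differed, with 0.67, 0.51 and 2.27 beside 3.74, 3.41 and 3.05. The covariate was fitted with a slope shared by all groups. With the acinar score as a covariate the smallest adjusted p of the difference between the effects was 0.883 with limma, against 0.0928 without that term. In the same fit the medians under L.J. turned to 0.24 for the neutrophil and 0.48 for the precursor list. Whether acinar transcripts account for any of these differences was not tested.

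Genes that respond to DNA damage or mark dividing cells had medians near 0, and the direction of the lists of dividing cells turned when single libraries were left out. Cdkn1a, the cell cycle inhibitor under p53, stood at 17.4, 11.03 and 13.04 FPKM with L.J. alone and at 16.7, 16.1 and 14.7 FPKM with busulfan and L.J., a difference of 0.20 with an interval from -0.15 to 0.55. Of 38 p53 target genes 21 were higher and 17 lower, with a median of 0.03, and of 38 genes of DNA crosslink repair 21 were higher, with a median of 0.01. Ddit4, an inhibitor of mTOR signalling that answers to p53, glucocorticoids and stress, stood at 44.2, 45.5 and 60.5 FPKM against 22.1, 16.7 and 42.3 FPKM, a difference of -0.96 (limma adjusted p = 0.867). Of the p53 targets 0 were higher and 2 lower at an unadjusted p below 0.05 with limma. The groups stood apart in 7 that were higher and in 2 that were lower, beside 8.03% and 7.9% of all genes. At that p 3 were higher and 2 lower with library weights, and 2 higher and 2 lower with quantile normalization. Eda2r, a receptor of the ectodysplasin family that is a known p53 target, lay below 1 FPKM in every library and was chosen after its values were seen. It stood at 0.25, 0.22 and 0.27 FPKM with L.J. alone and at 0.72, 0.55 and 0.54 FPKM with busulfan and L.J., and at 0.17, 0.17 and 0.22 FPKM in controls and 0.44, 0.32 and 0.37 FPKM with busulfan alone. Both pairs of groups were apart in the same direction, and in the fit without a filter the difference under L.J. had an adjusted p of 0.554 with limma.

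The proliferation marker Mki67 stood at 172, 156 and 165 FPKM against 144, 251 and 162 FPKM, and Mcm2, a subunit of the replicative helicase, at 37.7, 47.5 and 51.5 FPKM against 43.2, 56.3 and 46.0 FPKM. Both overlapped, and library 2 of busulfan with L.J. was the highest for each. Mitosis genes were lower in 46 of 72, with a median of -0.05, and DNA replication genes in 30 of 57, with a median of -0.01. Without library 2 of busulfan with L.J. 65 of 72 mitosis genes and 45 of 57 replication genes were lower, with medians of -0.19 and -0.09, whereas without library 3 of that group 42 and 33 were higher, with medians of 0.02 and 0.04. Kit, the stem cell factor receptor, differed by -0.06, with an interval from -0.34 to 0.22, and the median of 24 stem and progenitor genes was -0.05. Adgrg1, an adhesion receptor of that list, was lower with an unadjusted p below 0.05.

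Among erythroid genes 38 of 57 were higher (median 0.09), but without library 2 of busulfan with L.J. 42 of 57 were lower (median -0.13). The direction also turned with library weights, with 33 lower (median -0.04), and with the acinar score as a covariate, with 45 lower (median -0.21). Alas2, the erythroid enzyme of haem synthesis, stood at 272, 339 and 339.6 FPKM against 380.4, 656 and 373 FPKM, a difference of 0.52 (limma adjusted p = 0.925). The groups did not overlap, and library 2 of busulfan with L.J., which also had the highest erythroid score of these 6 libraries, 7.22, was the highest. B cell genes had a median of 0.12, with 22 of 29 higher, but 19 of 29 were lower with the acinar score as a covariate (median -0.04). Cd79a overlapped at 1836, 1021 and 974 FPKM against 1122, 873 and 1079 FPKM. Ms4a1, the gene of CD20, stood at 193, 199 and 176 FPKM against 309, 260.2 and 234 FPKM, a difference of 0.49 (limma adjusted p = 0.873). T cell genes had a median of 0.01, which ranged from -0.15 without library 1 of busulfan with L.J. to 0.21 without library 2, and Cd3e differed by -0.37 with overlapping groups. Red pulp macrophage genes were higher in 17 of 23 (median 0.16), including Slc40a1, the iron exporter ferroportin, by 0.47, and Spic by 0.35. The natural killer receptor Klrb1c differed by -0.24 with overlapping groups.

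Among metabolic and stress lists, glucocorticoid response and heat shock genes were lower, and fatty acid genes slightly higher. Cpt1a, which lets long-chain fatty acids into mitochondria (gene 12894, chromosome 19, 3322326 to 3385735), stood at 21.4, 23.1 and 23.8 FPKM against 29.1, 27.0 and 31.4 FPKM, a difference of 0.34 (limma adjusted p = 0.867). Angptl4, an inhibitor of lipoprotein lipase, stood at 7.2, 8.5 and 8 FPKM against 9.44, 10.4 and 9.84 FPKM, a difference of 0.29 (limma adjusted p = 0.873). For both genes the groups did not overlap. Of 43 genes of fatty acid oxidation and PPAR targets 29 were higher, with a median of 0.08, and 5 were higher at an unadjusted p below 0.05, beside 2.65% of all genes. Oxidative phosphorylation genes were lower in 51 of 74, with a median of -0.07 and 4 lower at an unadjusted p below 0.05, beside 3.17% of all genes. Among these was Ndufb3, a subunit of complex I, with -0.42. Without L.J. library 3 the list was split, with 38 of 74 lower, and with the acinar score as a covariate 47 were higher (median 0.09). Heat shock genes were lower in 21 of 27, with a median of -0.22, and the mitochondrial chaperonins Hspd1 and Hspe1 differed by -0.39 and -0.35. Glucocorticoid response genes were lower in 18 of 24, with a median of -0.31, and the groups stood apart in 7, all lower, beside 7.9% of all genes. With the acinar score as a covariate 13 of the 24 were higher, with a median of 0.06. The list includes the chemokine receptor Cxcr4, which stood at 202, 148 and 182 FPKM against 106.7, 85.9 and 151 FPKM and overlapped between the groups. Type I interferon genes were lower in 35 of 42, with a median of -0.19, but without L.J. library 3 27 of 42 were higher and the median was 0.03. Interferon gamma GTPase genes were lower in 22 of 22, with a median of -0.18 and 0 at an unadjusted p below 0.05 with limma, but without L.J. library 3 only 13 were lower and the median was -0.02.

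**Figure D5:**
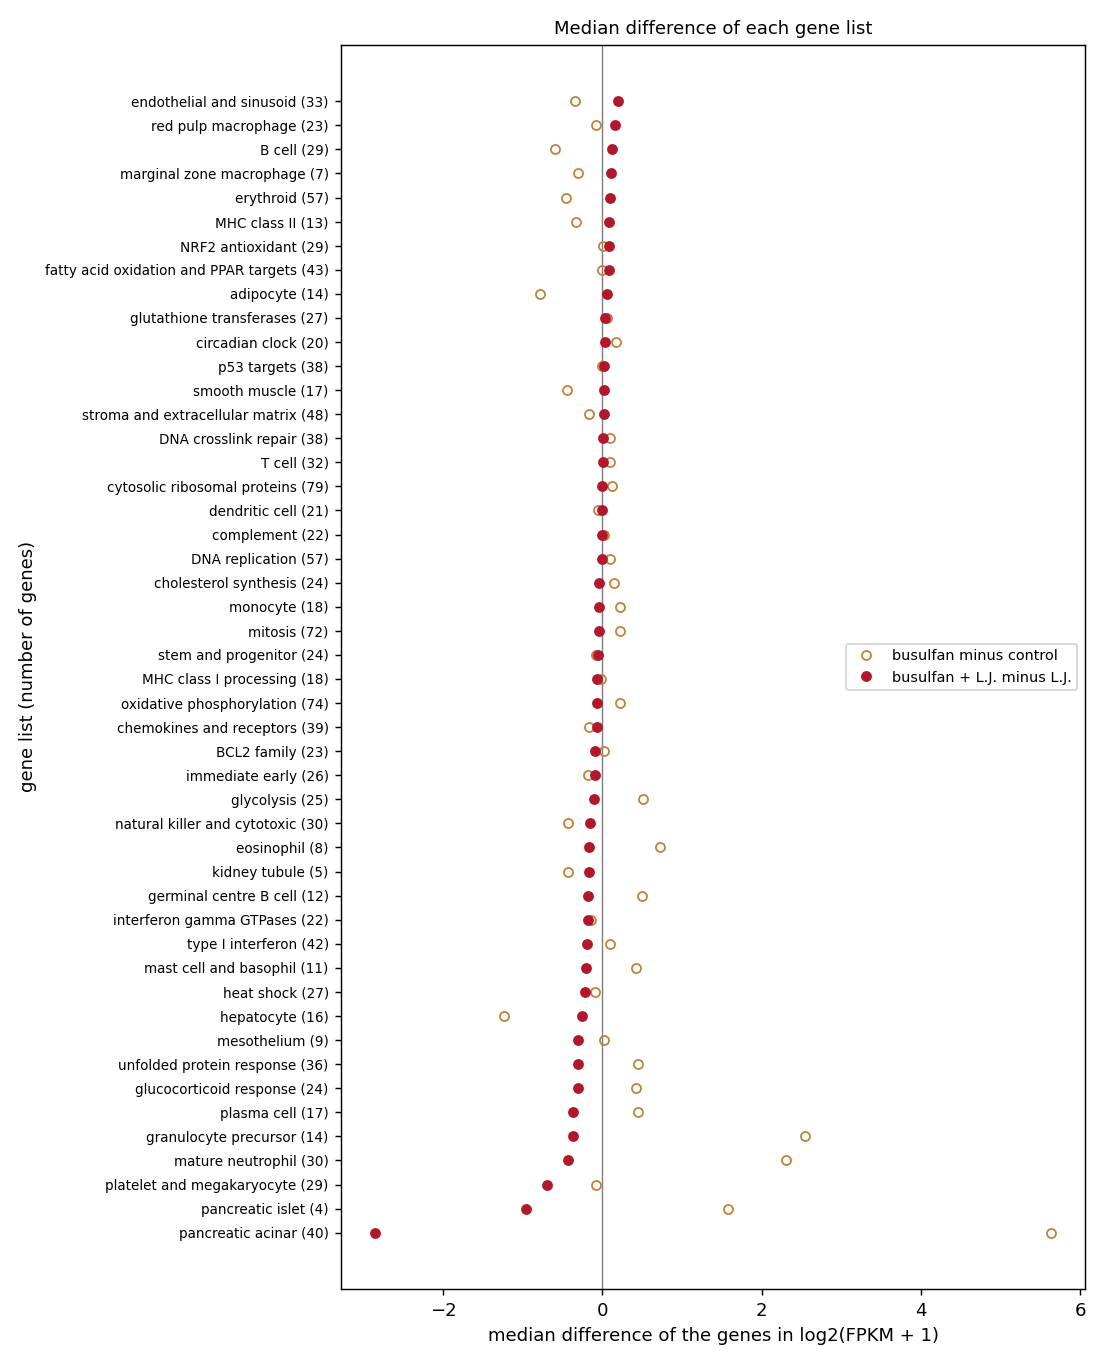
Median log2(FPKM + 1) difference of the genes of each of 48 lists, for busulfan with L.J. minus L.J. alone (filled) and busulfan minus control (open), with the number of genes in brackets. With L.J. the platelet, acinar and islet lists lie farthest to the left, and the endothelial list lies farthest to the right at 0.19. The islet list holds only 4 genes. Of these Ins1, Ins2 and Ttr met the minimum of 1 FPKM through L.J. alone and not through busulfan with L.J., so the filter fixed their direction. The neutrophil and granulocyte precursor lists lie at -0.43 and -0.37 with L.J. and at 2.30 and 2.54 without.

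The remaining genes with the smallest p-values were of mixed kinds. Reep4, a protein that clears reticulum from mitotic chromosomes, stood at 29.6, 28.2 and 29.9 FPKM against 22.5, 21.5 and 22.4 FPKM, a difference of -0.39. Gpatch4, a nucleolar protein, stood at 40.8, 37.6 and 31.0 FPKM against 24.1, 21.2 and 23.1 FPKM, a difference of -0.65. Fut8, which adds core fucose to secreted and surface glycoproteins, differed by -0.52, and Mcpt1, a mast cell protease, stood at 1.63, 2.74 and 0.78 FPKM against 0.23, 0.17 and 0.18 FPKM. Higher values were found for Exoc4, a subunit of the exocyst, by 0.38, for Jmjd7, a hydroxylase of the Jumonji family, by 0.78, and for the zinc finger gene Zfp72, by 0.59. Ndufa11b was listed at 0 in all 3 L.J. libraries and at 1.29, 1.29 and 2.87 FPKM with busulfan and L.J. It was also listed at 0 in 1 control and in all 3 libraries of busulfan alone, so no fold is given.

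The busulfan differences with and without L.J. rest on separate libraries, and few genes had a small p with the same sign in both. Of the 12661 genes 169 had an unadjusted p below 0.05 in both pairs, of which 26 had the same sign and 143 the opposite sign. Of the 26, 24 were lower in both, among them Nrgn, with -1.33 and -0.72. The 2 that were higher in both were Ctns, the lysosomal cystine transporter, at 6.92, 7.10 and 7.49 FPKM against 9.11, 7.71 and 9.59 FPKM under L.J., and St7l, at 3.13, 3.30 and 3.73 FPKM against 4.53, 3.85 and 4.30 FPKM. These were named after their values were seen. Genes at the edge of the FPKM minimum differed little from it on either side. Rarb entered with means of 0.907 and 1.00 FPKM and Mup8 with 1.00 and 0.737 FPKM in L.J. alone and busulfan with L.J., while Prdm11 at 0.783 and 0.997 FPKM and Adm2 at 0.997 and 0.317 FPKM stayed outside.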

How the data were processed

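Spleen RNA was sequenced in 12 libraries of 4 groups, taken from the labels. Per the file headers, the authors deposited FPKM values for 21004 genes, rounded to 2 decimals, and per the submitters' processing notes Bowtie 0.12.2 and the build mm10 were used, with no role named. The sources used here do not give the counting tool, the annotation or the strand handling. All 12 value columns were matched by name, and 26 symbols turned into dates were restored through the gene number.

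The deposited FPKM of 1206 sparse genes gave no steps of whole reads, so depth is unknown and no count test was run. FPKM scales to the library total, so abundant transcripts of 1 library lower its other values. limma 3.58.1 (R 4.3.3) fitted log2(FPKM + 1) of all 12 libraries with a mean for each group, over 13138 genes (mean of at least 1 FPKM in any group). Empirical Bayes was run with a trend and the robust option, and p-values were adjusted by Benjamini-Hochberg at 0.05. Tables and plots used Python 3.11.15, pandas 2.3.3, numpy 2.4.6 and matplotlib 3.10.9. The fit was tested on simulated data. The genes compared and the 48 lists were chosen with earlier results of these data known. Named genes are the 24 with the smallest p, up to 3 per list with the smallest p and a fixed set of markers, beside other list members given for their role and a few genes named as chosen later. Coordinates and promoters are from RefSeq, counted from 1. Alternatives changed normalization, filter, pseudocount, weights, samples, acinar transcripts and the replicate block. Some results of single list members are not reported here.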

Additional observations from a re-analysis of the deposited data

How the results depend on the processing

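Of 27 alternatives for the comparison under L.J., 25 left the count of called genes at 0. Without the filter it was 1 (Bex1, limma adjusted p = 0.0458), and leaving out 1 library at a time gave 0 to 1, the 1 being Cd300ld5 without library 3 of busulfan with L.J. For the difference between the busulfan effects the count was 220 with library weights and 1 when the 3 libraries with the highest acinar scores were left out, and leaving out 1 library at a time gave 0 to 508, the highest without library 3 of busulfan alone. With only the groups compared there is no such fit. Of 93 genes followed, 84 kept their sign throughout. With the acinar score as a covariate the sign turned in Gfi1b (-0.072), Xbp1 (0.032), S100a8 (0.565), Mpo (0.367), Mki67 (-0.109), Slamf1 (-0.034) and Dnajc3 (0.010), with library weights in Gfi1b (-0.026) and Mcm2 (-0.012), and when the 3 high-acinar libraries were left out in Slamf1 (-0.017). Leaving out 1 library turned it in Gfi1b (-0.062 to 0.124), Slamf1 (-0.073 to 0.275), Mki67 (-0.102 to 0.297), Mcm2 (-0.037 to 0.183) and Cd79a (-0.427 to 0.030). The cause of these turns was not tested. Nrgn ranged from -1.57 to -1.14 and Manf from -0.76 to -0.49. With the replicate number as a block both counts were 0, with smallest adjusted p-values of 0.828 and 0.108. The labels do not say that numbers pair samples. Same-numbered libraries correlated at -0.0435, 0.266 and 0.244 in their deviations from the group means, and differently numbered ones at -0.411 to 0.174. With 3 libraries per group these values cannot decide whether the numbers pair samples. Without read numbers, the counting error of genes at low FPKM is unknown.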

Other observations

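A few genes with values that lay apart were outside the comparisons above, and all were chosen after their values were seen. Bex1, a small signalling adaptor of neurons and progenitors, lay below 1 FPKM in every library. It stood at 0.60, 0.64 and 0.63 FPKM with L.J. alone and at 0.08, 0.16 and 0.09 FPKM with busulfan and L.J., against 0.26, 0.20 and 0.34 FPKM in controls and 0.31, 0.43 and 0.43 FPKM with busulfan alone. Cd99, a surface glycoprotein of leukocytes, stood at 1.29 FPKM in the second library given both agents and between 22.4 and 49.8 FPKM in the other 11 libraries. Cd300ld5, a receptor gene of the myeloid Cd300 cluster, stood at 4.06 and 5.22 FPKM in libraries 1 and 2 given both agents and at 0.41 FPKM in library 2 of busulfan alone, and was listed at 0 in the other 9 libraries.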
